A study of Mus musculus with 12 samples.

Results

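YAP and TAZ are transcriptional coactivators that shuttle between cytoplasm and nucleus. The Hippo kinase cascade, which ends in the LATS kinases, phosphorylates them and keeps them out of the nucleus, where they otherwise bind DNA through the TEAD factors and raise genes such as Ccn1, Ccn2 and Ankrd1. In muscle cells YAP is known for its part in myoblast proliferation, and its activity is turned down as myoblasts differentiate, while TEAD factors bind muscle gene promoters as well as growth genes. The 10 genes described here were chosen by name from the 78275 gene IDs of the table, with earlier results of these data known. They are Yap1 (YAP), Wwtr1 (TAZ), the TEAD genes Tead1 and Tead4, the kinase gene Lats2, and the target genes Ccn1, Ccn2, Ankrd1, Amotl2 and Axl. Each symbol had 1 gene ID, and all 10 passed the filter on low counts, which left 15030 tested genes.

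C2C12 is a mouse skeletal muscle myoblast line that withdraws from the cell cycle and fuses into myotubes when serum is lowered. The 12 libraries of polyadenylated RNA fall into 4 groups of 3. Cells of the induced knockdown group were transfected with siRNA to Zfp143, which encodes ZNF143, a transcription factor with zinc fingers, and were then kept 5 days in medium with 1% horse serum. Induced control cells had the same 5 days after a non-targeting siRNA. Uninduced knockdown and uninduced control cells had the corresponding siRNA and were collected 24 hours later, in growth medium with 10% fetal bovine serum. All 12 libraries therefore come from transfected cells of 1 line, and induced and uninduced libraries also differ in serum and in time since transfection. Whether the replicates of a group were separate cultures is not stated, and the p-values here measure only how far these libraries differ, which may be technical.

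Total estimated counts ran from 13.5 M to 19.1 M a library. After induction Zfp143 itself had 14.7, 16.8 and 19.7 CPM in knockdown libraries, against 19.7, 19.3 and 19.3 CPM in control libraries, which did not pass the test (edgeR quasi-likelihood test with Benjamini-Hochberg adjustment, adjusted p = 0.646; 88.0% of control). In uninduced cells it had 12.2, 11.9 and 10.1 CPM in knockdown libraries, against 23.2, 27.8 and 39.8 CPM in control libraries, and fell to 37.7% of the control level (adjusted p = 6.12e-05). CPM is the count relative to the library total, scaled between libraries by TMM factors. In 2 groups 1 library differed from the rest. Mitochondrial genes took 6.02% of uninduced control replicate 3, compared with 2.63% and 2.90% of the other 2, and this library was the lowest of its group for 8 of the 10 genes and the highest for Ankrd1. Induced knockdown replicate 1 was the shallowest library, and was the lowest of its group for 5 of the 10 genes and the highest for 4. Calls of the 10 genes that change without one or both of these libraries are given with both values.

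The summed level of 6 myotube markers lay at 2075 to 2711 CPM in induced knockdown libraries and 6108 to 7583 CPM in induced control libraries, and at 3.19 to 3.90 CPM in uninduced knockdown and 3.40 to 3.68 CPM in uninduced control libraries. All 5 myoblast markers were measured, led by Des, and summed to 1017 to 1323 CPM in induced knockdown and 1553 to 1952 CPM in induced control libraries, and to 451 to 518 CPM in uninduced knockdown and 439 to 514 CPM in uninduced control libraries. Smooth muscle markers, led by Acta2, of which 3 of 5 were tested, summed to 1494 to 1624 CPM in induced knockdown and 2263 to 2836 CPM in induced control libraries. In uninduced cells they summed to 88.3 to 106 CPM with the knockdown and 37.8 to 57.3 CPM with the control siRNA. Fibroblast markers, led by Dcn with 4 of 5 tested, summed to 585 to 658 CPM in induced knockdown and 859 to 968 CPM in induced control libraries, and to 78.4 to 93.5 CPM in uninduced knockdown and 52.4 to 61.4 CPM in uninduced control libraries. The smooth muscle and fibroblast sums were thus lower with knockdown in induced cells and higher with it in uninduced cells. Ccn2 and Ankrd1, described below, moved the same way, and the part of these sums in those results was not tested. Dcn itself overlapped in uninduced cells, at 10.9 to 12.7 CPM with the knockdown and 10.3 to 22.6 CPM with the control siRNA. The higher fibroblast sum there thus does not hold for each of its markers. The myotube and myoblast sums were lower with knockdown in induced cells and overlapped between siRNAs in uninduced cells. Most of the myoblast sum was Des, at 769 to 983 CPM in induced knockdown and 1163 to 1504 CPM in induced control libraries. Des was higher in induced than in uninduced cells, so this sum does not measure how many myoblasts were left. Des alone did not overlap in uninduced cells, at 342 to 402 CPM with the knockdown and 269 to 329 CPM with the control siRNA. The overlap of the myoblast sum there thus does not hold for each of its markers. Endothelial, macrophage, adipocyte and epithelial markers summed to at most 38.8 CPM, with Adgre1, Cfd, Epcam and Cldn3 at 0 in all 12 libraries. Those of osteoblasts and chondrocytes, led by Sox9, summed to 65.8 to 118 CPM.

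Promoter windows were looked up for the 10 genes because TEAD factors reach many targets through the letters GGAATG, and the targets differed in how they moved. RefSeq promoter windows of build GRCm38.p6, each of 300 bases around an annotated start, matched 7 of the genes by symbol, with 9 windows in all. Ccn2, Tead1 and Tead4 were not matched. GGAATG or its reverse CATTCC, searched on both strands, was found in 8 of the 9 windows and in at least 1 window of each of the 7 genes, against 14.7% of all 32851 windows. The AP-1 letters TGANTCA were in 0 of the 9 windows, against 7.81% of all windows. The CArG box was in 0 of 9, against 1.63%, so no motif overlapped another. With 9 windows and such low shares, finding 0 says little about these sites. The windows of the 4 matched target genes and of Lats2 are shown because these genes carry the expression results below, with the TEAD letters in capitals. They lie at chr3:145649936-145650235 on the minus strand for Ccn1, chr19:36119795-36120094 minus for Ankrd1, chr9:102717554-102717853 plus for Amotl2, chr7:25788684-25788983 minus for Axl and chr14:57746074-57746373 minus for Lats2. Each is written 5′ to 3′ in the direction of the gene.
Ccn1: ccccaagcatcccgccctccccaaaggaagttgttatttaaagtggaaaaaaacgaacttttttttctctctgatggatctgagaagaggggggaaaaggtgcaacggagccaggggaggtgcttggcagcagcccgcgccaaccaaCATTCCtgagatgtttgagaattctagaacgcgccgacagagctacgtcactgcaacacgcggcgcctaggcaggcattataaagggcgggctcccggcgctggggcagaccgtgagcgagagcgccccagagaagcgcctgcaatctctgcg
Ankrd1: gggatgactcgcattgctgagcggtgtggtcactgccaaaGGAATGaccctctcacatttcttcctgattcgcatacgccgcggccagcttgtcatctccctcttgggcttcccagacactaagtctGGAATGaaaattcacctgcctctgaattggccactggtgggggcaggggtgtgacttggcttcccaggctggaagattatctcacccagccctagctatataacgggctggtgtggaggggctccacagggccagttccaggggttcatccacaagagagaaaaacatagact
Amotl2: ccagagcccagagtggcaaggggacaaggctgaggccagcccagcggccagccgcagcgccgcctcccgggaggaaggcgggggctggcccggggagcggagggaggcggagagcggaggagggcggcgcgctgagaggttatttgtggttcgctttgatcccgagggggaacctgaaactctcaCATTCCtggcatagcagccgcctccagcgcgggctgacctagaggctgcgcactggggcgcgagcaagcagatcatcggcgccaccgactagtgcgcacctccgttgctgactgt
Axl: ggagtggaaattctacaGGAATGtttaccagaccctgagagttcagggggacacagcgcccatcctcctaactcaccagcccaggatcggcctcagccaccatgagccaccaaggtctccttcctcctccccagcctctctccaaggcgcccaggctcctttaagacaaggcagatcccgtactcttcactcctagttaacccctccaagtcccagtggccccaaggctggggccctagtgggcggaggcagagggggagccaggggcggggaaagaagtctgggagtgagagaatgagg
Lats2: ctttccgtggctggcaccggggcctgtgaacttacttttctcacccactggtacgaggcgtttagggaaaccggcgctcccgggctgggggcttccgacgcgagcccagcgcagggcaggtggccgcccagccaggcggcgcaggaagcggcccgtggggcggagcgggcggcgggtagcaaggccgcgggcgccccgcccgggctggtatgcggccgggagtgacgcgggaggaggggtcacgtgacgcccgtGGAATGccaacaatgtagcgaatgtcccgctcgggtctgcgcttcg

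Ankrd1 held the letters at 2 places, 210 and 123 bases before the start, Axl 233 and Ccn1 103 bases before it, and Amotl2 65 bases before it. In Ccn1 and Amotl2 the letters stood on the reverse strand. Lats2 held them 5 bases after the start of the window shown, and its other annotated start had none. Yap1 held them 141 bases before its start, and Wwtr1 136 and 170 bases before its annotated starts, whose windows overlap and hold the same match. A match is a stretch of letters in this window and no measure of binding.

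**Figure D1:**
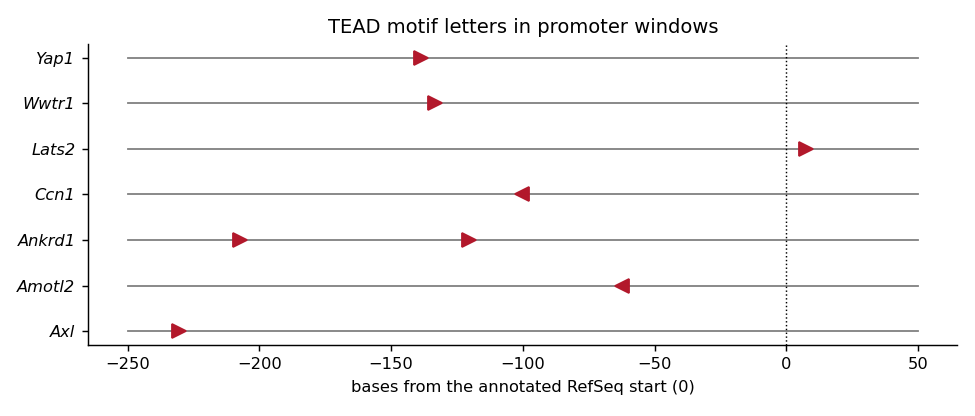
Places of the TEAD letters in the first promoter window of the 7 matched genes, in bases from the RefSeq start at 0, with right-pointing triangles for the gene's strand and left-pointing ones for the reverse strand. Ankrd1 has 2 matches and each other gene 1, and only the Lats2 match lies after the start.

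Compared per transcript length, in TPM (the deposited level of transcripts, relative to their total in a library), Ankrd1 and Ccn1 led the genes in induced cells. Ccn1 averaged 366 ± 67.2 TPM and Ankrd1 355 ± 3.89 TPM in induced knockdown cells, with overlapping ranges (SD, n = 3). In induced control cells Ankrd1 came first at 672 ± 46.0 TPM, Ccn1 next at 577 ± 32.6 TPM, and Ccn2 after it at 308 ± 12.5 TPM, with no overlap between neighbours. Axl was close in both induced groups, at 259.7 ± 26.9 TPM in knockdown and 267 ± 11.9 TPM in control cells. Ccn2 averaged 106 ± 13.6 TPM in induced knockdown cells and its range there overlapped that of Wwtr1. In uninduced knockdown cells Ankrd1 led at 254 ± 15.1 TPM and Axl followed at 111 ± 0.352 TPM. In uninduced control cells Ankrd1 led at 128 ± 18.9 TPM, and Ccn1, Axl, Wwtr1 and Yap1, between 80.7 and 62.9 TPM on average, could not be ordered because neighbours overlapped. Tead4 was lowest in both induced groups, at 7.45 ± 1.26 TPM in knockdown and 16.9 ± 3.700 TPM in control cells. In uninduced knockdown cells Tead4, at 5.58 ± 0.841 TPM, and Tead1, at 5.86 ± 0.995 TPM, were last and overlapped. In uninduced control cells Ccn2, at 3.38 ± 1.44 TPM, and Tead4, at 3.62 ± 1.47 TPM, were last and overlapped.

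Induction raised most of the genes with either siRNA. In knockdown cells 6 of 10 rose (Tead1, Lats2, Ccn1, Ccn2, Amotl2 and Axl) and 0 fell (also 0 at an unadjusted p under 0.05 and with DESeq2), against 36.0% higher and 30.1% lower among all tested genes (66.1% in either direction). With scaling by library size only the split of all tested genes was 6597 higher and 3371 lower, against 5406 and 4526 with TMM factors. The median log2 fold change of the 10 was 0.65, against 0.10 over all tested genes. In control cells Tead4 and Ankrd1 rose as well as these 6, Yap1 fell and Wwtr1 did not pass the test. That is 8 of 10 higher and 1 of 10 lower, against 33.2% of all tested genes higher and 30.9% lower (64.1% in either direction). With scaling by library size only the split was 5715 higher and 3652 lower, against 4992 and 4644, and 0 of the 10 were lower. The median of the 10 was then 1.36, against 0.03 over all tested genes. All calls are at an adjusted p under 0.05 in edgeR's quasi-likelihood test. The 2 induction comparisons have no library in common, but each shares a group with each knockdown comparison. These are bulk libraries in which fewer cells of a type and less RNA per cell cannot be told apart.

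Some genes were lower with the Zfp143 siRNA in induced cells, and genes moved in both directions with it in uninduced cells. Knockdown in induced cells names the siRNA given, as Zfp143 itself did not pass the test there. After induction 0 of 10 rose (also 0 at an unadjusted p under 0.05 and with DESeq2) and 4 of 10 fell (Tead4, Ccn1, Ccn2 and Ankrd1), against 3.73% of all tested genes higher and 5.77% lower (9.49% in either direction). With scaling by library size only the split of all tested genes was 681 higher and 631 lower, against 560 and 867 with TMM factors, and 3 of the 10 fell. The median log2 fold change of the 10 was -0.15, against -0.03 over all tested genes. Before induction 4 of 10 rose (Tead4, Ccn2, Ankrd1 and Axl) and 2 of 10 fell (Yap1 and Tead1), against 15.4% of all tested genes higher and 17.1% lower (32.5% in either direction). Their median was then 0.05, against -0.04. Tead4, Ccn2 and Ankrd1 were thus lower with the knockdown after induction and higher with it before. The difference between the 2 knockdown effects, tested as the interaction, passed for 5 of 10 genes, positive for Tead1 and negative for Tead4, Ccn2, Ankrd1 and Axl. Among all tested genes 10.6% had a positive and 11.8% a negative interaction, 22.5% in all.

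**Figure D2:**
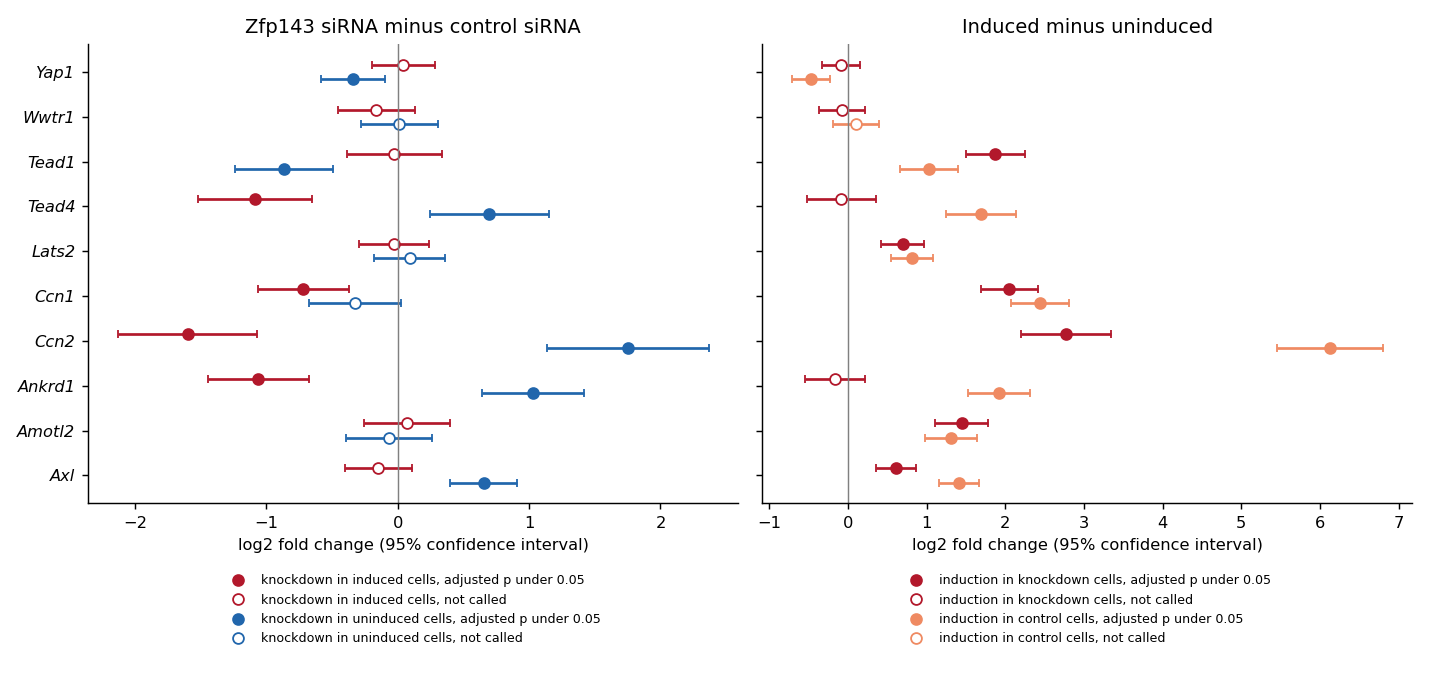
Log2 fold change of each gene with its 95% confidence interval: on the left, Zfp143 siRNA minus control siRNA in induced and in uninduced cells, and on the right, induced minus uninduced in knockdown and in control cells. Filled points have an adjusted p under 0.05. On the left Tead4, Ccn2 and Ankrd1 lie on opposite sides of 0 in the 2 states, and on the right Ccn2 lies farthest out, at 2.77 in knockdown and 6.13 in control cells.

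Of the 2 coactivator genes, Yap1 passed the test in 2 comparisons and Wwtr1 in 0. Yap1 had 118, 136 and 139 CPM in induced knockdown libraries, against 128, 126 and 129 CPM in induced control libraries. It had 128, 146 and 144 CPM in uninduced knockdown libraries, against 176, 193 and 162 CPM in uninduced control libraries. The uninduced control libraries were thus the 3 highest of all 12, and the other groups overlapped. In induced cells the knockdown difference was 0.04 (95% confidence interval -0.20 to 0.28). Yap1 fell with knockdown in uninduced cells, by 0.34 on the log2 scale (SE 0.113; edgeR adjusted p = 0.0311). This call was lost with scaling by library size only (adjusted p = 0.0952), without the filter on low counts (0.105), in a fit of these 2 groups alone (0.113), and without uninduced control replicate 1 (0.0628) or 2 (0.129) or uninduced knockdown replicate 1 (0.139) or 3 (0.0711). In knockdown cells the induction difference was -0.09 (95% confidence interval -0.33 to 0.15). Induction lowered Yap1 in control cells, with a log2 fold change of -0.47 (SE 0.113; edgeR adjusted p = 0.00192), a call lost with scaling by library size only (adjusted p = 0.0772). The interaction of 0.38 did not pass (edgeR adjusted p = 0.0994), and passed without uninduced control replicate 3 (adjusted p = 0.0333) or without induced knockdown replicate 1 (0.0392).

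Wwtr1, which encodes the YAP paralogue TAZ, had 149, 199.9 and 211 CPM in induced knockdown libraries, against 211, 199 and 218 CPM in induced control libraries. In uninduced cells it had 181, 205 and 206 CPM with the knockdown and 182, 221 and 184 CPM with the control siRNA. All 4 groups overlapped, and the lowest value, in induced knockdown replicate 1, was in the shallowest library. No comparison of Wwtr1 passed the test. Its 95% confidence intervals ran from -0.46 to 0.13 for knockdown in induced cells, -0.28 to 0.31 for knockdown in uninduced cells, -0.37 to 0.22 for induction in knockdown cells and -0.20 to 0.39 for induction in control cells.

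The balance of the 2 coactivators, taken as the Wwtr1 to Yap1 ratio of TPM within a library, averaged 1.41 ± 0.104 in induced knockdown, 1.61 ± 0.0323 in induced control, 1.39 ± 0.0293 in uninduced knockdown and 1.12 ± 0.0811 in uninduced control cells (SD, n = 3). Groups did not overlap in 3 of the 4 comparisons: knockdown in induced cells, knockdown in uninduced cells and induction in control cells. Each of these gave p = 0.1 in an exact two-sided permutation test, the smallest that 3 against 3 libraries allow, so no ratio can pass at 0.05. For induction in knockdown cells the exact permutation p was 0.8.

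Tead1 and Tead4 encode DNA-binding partners of YAP and TAZ, and Tead4 is known as a direct target of MYOD1 in myoblasts. Tead1 had 121, 135 and 160.4 CPM in induced knockdown libraries, against 126, 149 and 150.04 CPM in induced control libraries. In uninduced cells it had 35.4, 40.3 and 38.4 CPM with the knockdown and 78.5, 80.2 and 48.9 CPM with the control siRNA. Induced groups overlapped, whereas every uninduced knockdown library lay below every uninduced control library. The knockdown difference in induced cells was -0.03 (95% confidence interval -0.39 to 0.33). Knockdown lowered Tead1 in uninduced cells, to 54.9% of control (log2 fold change -0.87, SE 0.173; edgeR adjusted p = 0.00166). Induction raised Tead1 in knockdown cells by 1.87 (SE 0.176; edgeR adjusted p = 2.84e-07) and in control cells by 1.03 (SE 0.171; edgeR adjusted p = 8.81e-05) on the log2 scale. The interaction of 0.84 (SE 0.242; edgeR adjusted p = 0.0216) lost its call without uninduced control replicate 2 (adjusted p = 0.0606), uninduced knockdown replicate 1 (0.0597), induced control replicate 1 (0.0625) or induced knockdown replicate 3 (0.0560).

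Tead4 moved with knockdown in both states. It had 10.7, 8.02 and 9.71 CPM in induced knockdown libraries, against 16.7, 25.9 and 17.5 CPM in induced control libraries. It had 9.47, 11.6 and 8.98 CPM in uninduced knockdown libraries, against 6.90, 6.86 and 4.73 CPM in uninduced control libraries. The 2 knockdown groups overlapped each other, lay wholly below the induced control libraries and wholly above the uninduced control libraries. With knockdown Tead4 in induced cells fell to 47.2% of control (log2 fold change -1.08, SE 0.203; edgeR adjusted p = 0.00235). Knockdown raised Tead4 in uninduced cells by 0.70 on the log2 scale (SE 0.212; edgeR adjusted p = 0.0208), which no longer passed once uninduced control replicate 3 (adjusted p = 0.0520) or uninduced knockdown replicate 2 (0.0825) was left out. In knockdown cells the induction difference was -0.09 (95% confidence interval -0.53 to 0.36). Induction raised Tead4 3.24-fold in control cells (log2 fold change 1.69, SE 0.209; edgeR adjusted p = 4.60e-06). The interaction was -1.78 (SE 0.293; edgeR adjusted p = 0.000603).

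**Figure D3:**
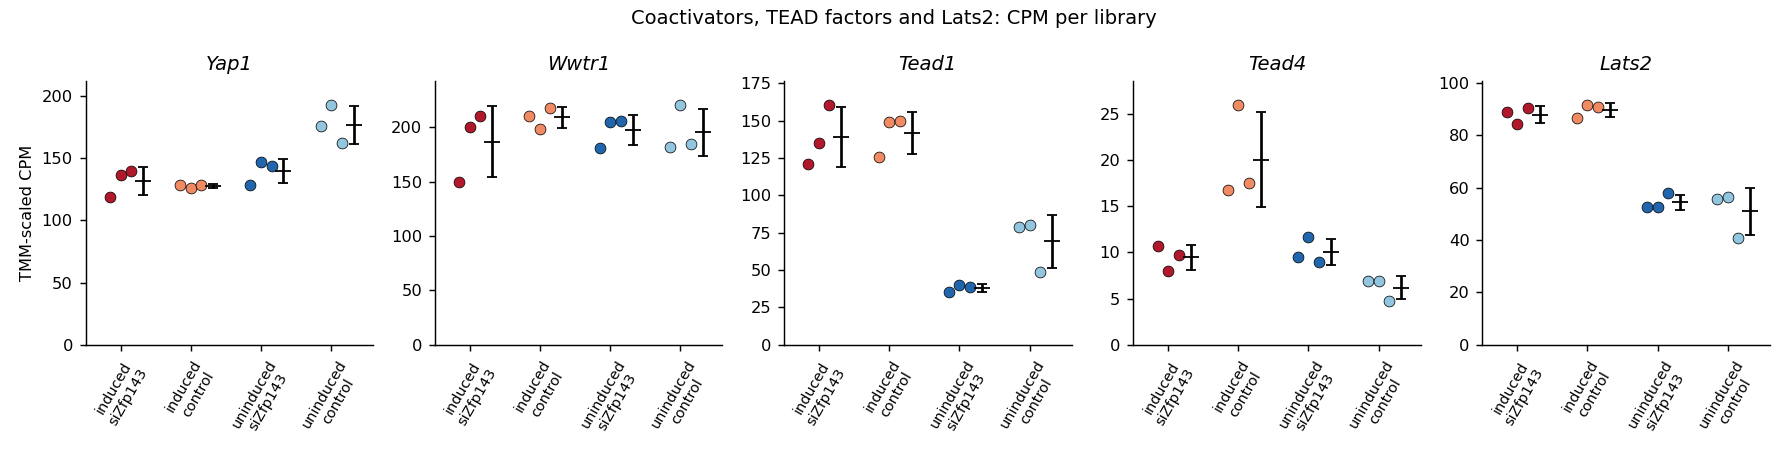
TMM-scaled CPM of the 2 coactivator genes, the 2 TEAD genes and Lats2 in each library, with 3 points for each group and the mean and SD beside them, on axes that start at 0. Tead1 is lowest in the uninduced knockdown libraries, at 35.4 to 40.3 CPM, and Tead4 highest in the induced control libraries, at 16.7 to 25.9 CPM.

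Set against each other per length, the Tead4 to Tead1 ratio of TPM averaged 0.230 ± 0.0213 in induced knockdown, 0.573 ± 0.0680 in induced control, 0.962 ± 0.142 in uninduced knockdown and 0.324 ± 0.0230 in uninduced control cells (SD, n = 3). The 2 transcripts were thus nearest to equal in uninduced knockdown cells. No pair of groups compared overlapped. The log2 difference was -1.31 for knockdown in induced cells, 1.56 for knockdown in uninduced cells, -2.06 for induction in knockdown cells and 0.82 for induction in control cells, each with an exact two-sided permutation p of 0.1, the smallest possible here.

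**Figure D4:**
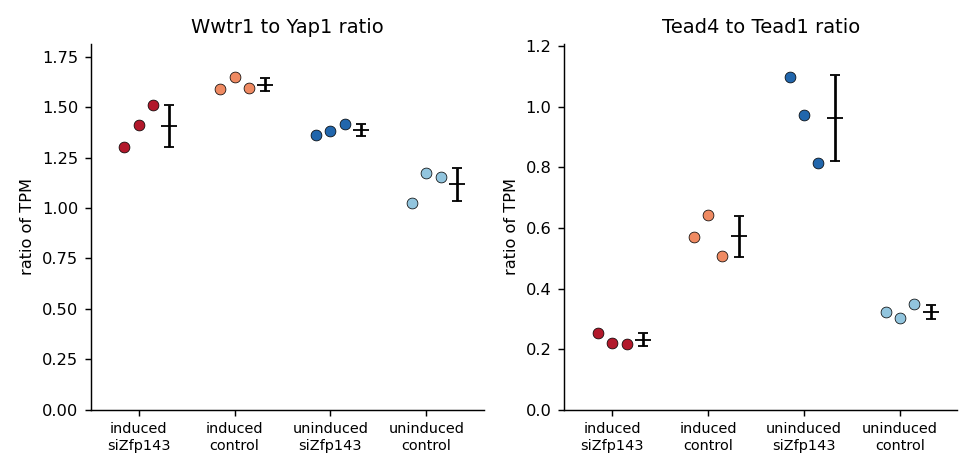
Ratio of Wwtr1 to Yap1 and of Tead4 to Tead1 in TPM within each library, with 3 points for each group and the mean and SD beside them. The Wwtr1 to Yap1 means stay between 1.12 and 1.61, while the Tead4 to Tead1 means run from 0.230 in induced knockdown to 0.962 in uninduced knockdown cells.

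The other TEAD genes are given for completeness and were picked after their values were seen. Tead2 had 33.2, 26.0 and 20.7 CPM in induced knockdown libraries, against 26.2, 25.3 and 23.9 CPM in induced control libraries. In uninduced cells it had 35.1, 33.5 and 34.7 CPM with the knockdown and 46.2, 38.7 and 34.4 CPM with the control siRNA. Tead2 fell with induction in control cells (log2 fold change -0.66; edgeR adjusted p = 0.00201), while Tead3 rose by 0.66 in knockdown cells (adjusted p = 0.0124) and by 1.02 in control cells (adjusted p = 0.000642). Tead3 had 37.4, 22.2 and 21.3 CPM in induced knockdown, 28.8, 24.7 and 23.7 CPM in induced control, 18.0, 14.7 and 18.4 CPM in uninduced knockdown and 14.997, 12.95 and 9.99 CPM in uninduced control libraries. The Tead3 call in knockdown cells was lost without induced knockdown replicate 1 (0.35; adjusted p = 0.0845) or uninduced knockdown replicate 2 (0.56; 0.0575). The Tead2 value in knockdown cells, -0.37, lay at the threshold (adjusted p = 0.0512). It passed with DESeq2 size factors (0.0377), in DESeq2 (0.0299), with length offsets (0.00757) and without uninduced control replicate 1 (0.0333) or 3 (0.0233) or induced knockdown replicate 1 (-0.56; 0.00441). Neither passed for knockdown in either state or for the interaction with all 12 libraries, while Tead3 passed for knockdown in uninduced cells without induced knockdown replicate 1 (0.42; adjusted p = 0.0491). Without both libraries that differed from their groups, Tead2 passed for knockdown in uninduced cells (-0.30; adjusted p = 0.0342) and Tead3 for the interaction (-0.53; adjusted p = 0.0328).

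Lats2 encodes the kinase that phosphorylates YAP and TAZ, and is itself a known target of YAP in mammalian cells. It had 88.9, 84.4 and 90.6 CPM in induced knockdown libraries, against 86.7, 91.7 and 90.9 CPM in induced control libraries. It had 52.8, 52.6 and 57.9 CPM in uninduced knockdown libraries, against 55.9, 56.5 and 40.7 CPM in uninduced control libraries. All induced libraries were above all uninduced ones, and the 2 siRNAs overlapped in both states. Induction raised Lats2 1.62-fold in knockdown cells (log2 fold change 0.69; edgeR adjusted p = 0.000219) and 1.76-fold in control cells (0.81; adjusted p = 4.91e-05). The knockdown difference was -0.03 in induced cells (95% confidence interval -0.30 to 0.24) and 0.09 in uninduced cells (-0.18 to 0.36).

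Among the target genes, Ccn2 had the widest range. CCN2, also called CTGF, is a secreted matricellular protein that is induced by YAP and by TGF-beta. The gene had 128, 101 and 98.7 CPM in induced knockdown libraries, against 365, 312 and 312 CPM in induced control libraries. It had 21.5, 8.21 and 18.0 CPM in uninduced knockdown libraries, against 5.22, 5.54 and 3.28 CPM in uninduced control libraries. No group overlapped another, and uninduced knockdown replicate 2 was well below the other 2 of its group. With knockdown Ccn2 fell to 33.0% of control in induced cells (log2 fold change -1.60, 95% confidence interval -2.13 to -1.07; edgeR adjusted p = 0.000514). In uninduced cells it rose 3.37-fold with knockdown (log2 fold change 1.75, 95% confidence interval 1.14 to 2.37; edgeR adjusted p = 0.000378). Induction raised it 6.84-fold in knockdown cells (log2 fold change 2.77, SE 0.267; edgeR adjusted p = 3.54e-07) and 69.8-fold in control cells (6.13, SE 0.315; adjusted p = 2.63e-10). The interaction was -3.35 (SE 0.380; edgeR adjusted p = 2.55e-05). The libraries did not keep strand, and Gm15270 overlaps Ccn2 on the opposite strand. That gene had at most 39.9 estimated counts in any library, while the lowest Ccn2 count was 50. The 2 values need not come from the same library, and the part of Gm15270 in the Ccn2 changes was not tested.

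Ccn1, also called CYR61, is the paralogous secreted protein and an immediate-early gene. It had 283, 372 and 377 CPM in induced knockdown libraries, against 598, 538 and 560.4 CPM in induced control libraries. It had 85.9, 77.05 and 86.5 CPM in uninduced knockdown libraries, against 119, 117 and 76.99 CPM in uninduced control libraries. Induced groups did not overlap, and uninduced control replicate 3 lay below all uninduced knockdown libraries while the other 2 lay above them. With knockdown Ccn1 fell in induced cells to 60.9% of control (log2 fold change -0.72, SE 0.163; edgeR adjusted p = 0.00952), a call lost with scaling by library size only (-0.62; adjusted p = 0.0562). In uninduced cells the difference of -0.33 did not pass (95% confidence interval -0.68 to 0.02; edgeR adjusted p = 0.145), and without uninduced control replicate 3 it was -0.50 and passed (adjusted p = 0.00716). Induction raised Ccn1 4.14-fold in knockdown cells (log2 fold change 2.05; edgeR adjusted p = 6.50e-08) and 5.42-fold in control cells (2.44; adjusted p = 8.69e-09). The interaction of -0.39 did not pass (95% confidence interval -0.88 to 0.10; edgeR adjusted p = 0.248).

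Ankrd1 encodes the cardiac ankyrin repeat protein, a nuclear and sarcomeric protein of stretched or injured muscle. It had 343, 394 and 366 CPM in induced knockdown libraries, against 739, 813 and 746 CPM in induced control libraries. It had 444, 372 and 424 CPM in uninduced knockdown libraries, against 145, 190.4 and 272 CPM in uninduced control libraries. The knockdown libraries of both states overlapped each other, above all uninduced control and below all induced control libraries. With knockdown Ankrd1 fell to 47.98% of control in induced cells (log2 fold change -1.06, SE 0.181; edgeR adjusted p = 0.00114). In uninduced cells it rose 2.04-fold with knockdown (log2 fold change 1.03, SE 0.181; edgeR adjusted p = 0.000642). The induction difference in knockdown cells was -0.17 (95% confidence interval -0.55 to 0.21), while in control cells Ankrd1 rose 3.78-fold (log2 fold change 1.92, SE 0.185; edgeR adjusted p = 3.26e-07). The interaction was -2.09 (SE 0.256; edgeR adjusted p = 4.91e-05).

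Amotl2 encodes an angiomotin-like junction protein that binds and restrains YAP and is also its target. It had 233, 173 and 181 CPM in induced knockdown libraries, against 197, 174 and 187 CPM in induced control libraries. It had 75.5, 63.2 and 77.0 CPM in uninduced knockdown libraries, against 80.2, 85.8 and 59.7 CPM in uninduced control libraries. The 2 siRNAs overlapped in both states, and induction separated the libraries fully. Induction raised Amotl2 2.72-fold in knockdown cells (log2 fold change 1.44; edgeR adjusted p = 1.21e-06) and 2.47-fold in control cells (1.31; adjusted p = 3.04e-06). The knockdown difference was 0.07 in induced cells (95% confidence interval -0.25 to 0.39) and -0.07 in uninduced cells (-0.39 to 0.26).

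Axl encodes a receptor tyrosine kinase of the TAM family, which binds GAS6. It had 626, 559 and 556 CPM in induced knockdown libraries, against 652, 639 and 636 CPM in induced control libraries. It had 390.1, 369.7 and 382 CPM in uninduced knockdown libraries, against 247, 264 and 214 CPM in uninduced control libraries. No group overlapped another. The knockdown difference of -0.15 in induced cells did not pass (95% confidence interval -0.40 to 0.11; edgeR adjusted p = 0.558). Knockdown raised Axl 1.57-fold in uninduced cells (log2 fold change 0.65, SE 0.119; edgeR adjusted p = 0.000807). Induction raised it 1.52-fold in knockdown cells (log2 fold change 0.61; edgeR adjusted p = 0.000367) and 2.66-fold in control cells (1.41; adjusted p = 8.14e-08). The interaction was -0.80 (SE 0.167; edgeR adjusted p = 0.00339). The calls of Ccn2, Ankrd1 and Axl in the 5 comparisons were the same under every alternative run.

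**Figure D5:**
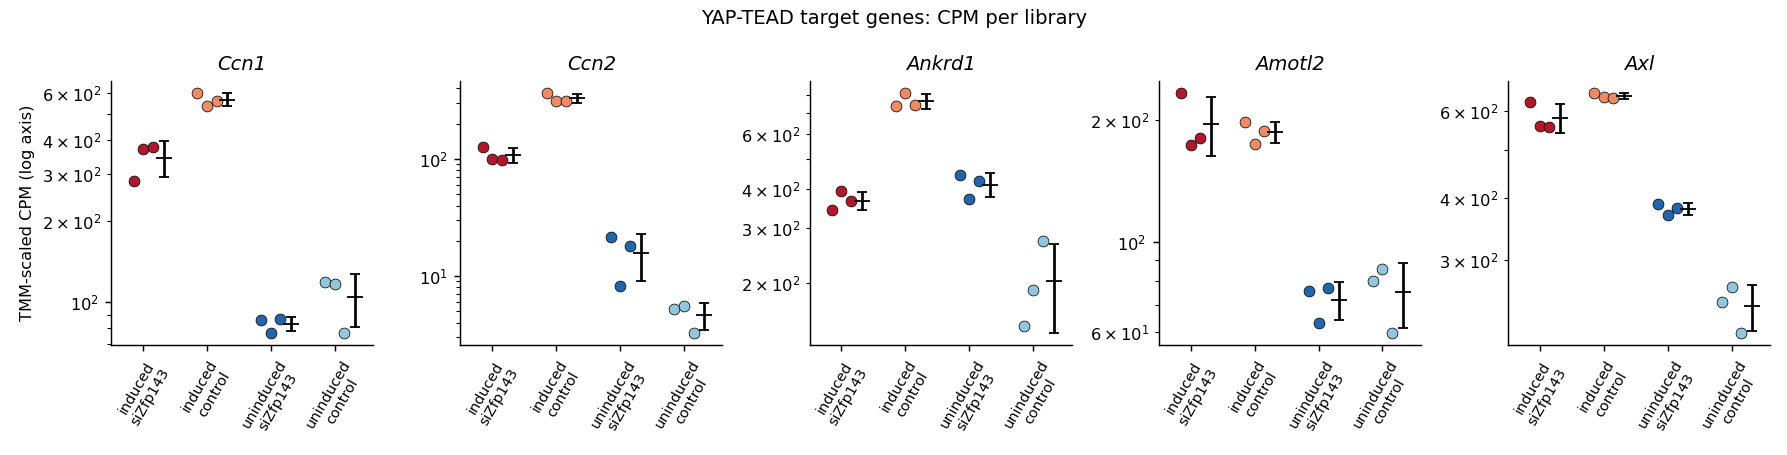
TMM-scaled CPM of the 5 target genes in each library on log axes, with 3 points for each group and the mean and SD beside them. In Ankrd1 the knockdown libraries of both states lie at 343 to 444 CPM, between the uninduced control libraries at 145 to 272 CPM and the induced control libraries at 739 to 813 CPM.

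Around the 10 genes, the Hippo pathway and its TEAD cofactors were taken as a list of 29 genes, of which 27 were measured and Vgll1 and Vgll2 were not tested. Knockdown in uninduced cells raised 7 of the 27 and lowered 4, with a median log2 fold change of -0.14, against 15.4% higher, 17.1% lower and a median of -0.04 over all tested genes. The count lowered was 7 with length offsets, 2 without uninduced knockdown replicate 1, and 11 without both uninduced control replicate 3 and induced knockdown replicate 1. Those that rose include Wwc1 (KIBRA, an upstream activator of the pathway), by 2.38 (SE 0.266; edgeR adjusted p = 1.42e-05), and Vgll3, a cofactor that binds TEAD factors, by 1.09 (SE 0.130; edgeR adjusted p = 2.68e-05). The protocadherin gene Dchs1 had 61 counts summed over uninduced knockdown libraries and 3 over uninduced control libraries, a ratio of 20.3 (95% counting interval 6.64 to 101). Those that fell include Mob1a, which activates the LATS kinases, with a log2 fold change of -0.93 (edgeR adjusted p = 0.000328), the angiomotin family gene Amotl1, with -0.81 (adjusted p = 0.00168), and Ajuba, which restrains LATS, with -0.48 (adjusted p = 0.0143). The Ajuba call was lost without uninduced control replicate 2 (0.0569), uninduced knockdown replicate 1 (0.0523) or uninduced knockdown replicate 2 (0.0536). In induced cells 1 of 27 rose with knockdown and 0 fell (3 and 3 at an unadjusted p under 0.05), against 3.73% and 5.77% of all tested genes. DESeq2 gave 0 higher and 2 lower, edgeR without the filter 1 and 1, and edgeR without both of those libraries 0 and 3. Leaving out 1 library gave 0 to 2 lower, with 2 without uninduced control replicate 3 and 1 without induced control replicate 1 or induced knockdown replicate 3. The gene that rose was Wwc1 (log2 fold change 1.41; edgeR adjusted p = 0.0459), at 0.598, 0.347 and 0.901 CPM in knockdown and 0.208, 0.264 and 0.210 CPM in control libraries. Its call was lost with DESeq2 (adjusted p = 0.0554), without the filter (0.0783), with length offsets (0.0532) and on leaving out any of 10 of the 12 libraries (up to 0.286).

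Induction raised 12 of the 27 and lowered 4 in knockdown cells (median 0.27), and raised 11 and lowered 6 in control cells (median 0.25). Over all tested genes the shares were 36.0% higher and 30.1% lower in knockdown cells (median 0.10), and 33.2% and 30.9% in control cells (median 0.03). The 4 lowered in knockdown cells became 2 with scaling by library size only or without uninduced knockdown replicate 2. They became 6 with DESeq2 size factors, in DESeq2, with length offsets and with a replicate block, and leaving out 1 library gave 2 to 5. In knockdown cells Fat4, an atypical cadherin, rose by 4.40 on the log2 scale and Amot, the YAP-binding angiomotin, by 2.50, while Wwc1 fell by 3.85 and Rassf1, a scaffold of the MST kinases, by 2.53. In control cells Amot rose by 2.22, Vgll3 by 2.03 and Frmd6, an upstream FERM protein, by 1.61, while Wwc1 fell by 2.89, Mob1a by 1.33 and Rassf1 by 1.20. The edgeR adjusted p of these 10 changes was at most 6.78e-06. Of them Fat4 started near the floor, at 5 to 6 counts in uninduced knockdown libraries and 93 to 158 in induced knockdown libraries. Wwc1 ended near it, at 7 to 18 counts in induced knockdown and 4 to 5 in induced control libraries. In knockdown cells Amotl1 also rose, by 1.14 (adjusted p = 2.29e-05), and Mob1a fell by 0.44 (adjusted p = 0.0169), a call lost with scaling by library size only (0.216) and without uninduced knockdown replicate 2 (0.0635) or induced knockdown replicate 1 (0.0648). The interaction passed for 2 in the positive direction (Mob1a 0.89 and Ajuba 0.61) and 5 in the negative direction, among them Vgll3 at -1.47, Rassf1 at -1.33 and Frmd6 at -0.89. The Ajuba interaction (edgeR adjusted p = 0.0343) lost its call on leaving out any of 7 libraries (up to 0.0820). With all libraries 10.6% of all tested genes had a positive and 11.8% a negative interaction. Without both libraries named above 5 interactions of the list were positive and 7 negative. In that setting 2769 of all tested genes were positive and 2986 negative, against 1595 and 1780 with all libraries.

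A list of 16 further genes known from YAP target signatures, of which 15 were measured and Igfbp3 was not tested, moved in both directions too. With knockdown in uninduced cells 4 of the 15 rose and 6 fell (median 0.05), against 15.4% and 17.1% of all tested genes. Nuak2, a kinase of the AMPK family, had 58.2, 66.4 and 60.4 CPM in knockdown and 15.4, 12.1 and 10.3 CPM in control libraries (log2 fold change 2.28, SE 0.168; edgeR adjusted p = 2.69e-07). Ccdc80, a matrix protein, rose by 0.92 (edgeR adjusted p = 7.81e-05) and Myof, a ferlin of membrane repair, by 0.48 (adjusted p = 0.00971). Crim1, a transmembrane BMP-binding protein, had a log2 fold change of -1.29 (edgeR adjusted p = 2.66e-05), Tgfb2 of -1.03 (0.000123) and Ptpn14, a phosphatase that restrains YAP, of -0.54 (0.00771). In induced cells 0 of 15 rose with knockdown (2 at an unadjusted p under 0.05, 1 in DESeq2, without the filter, with length offsets or without both libraries, and 2 without uninduced control replicate 3). The 2 that fell, against 5.77% of all tested genes, were the stress gene Gadd45a (log2 fold change -1.09; edgeR adjusted p = 1.66e-05) and the TGF-beta ligand gene Tgfb2 (-0.66; adjusted p = 0.00351).

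Induction raised 9 of these 15 and lowered 3 in knockdown cells (median 0.59), and raised 6 and lowered 3 in control cells (median 0.28), against the shares of all tested genes given above. Ccdc80 rose by 3.54 on the log2 scale in knockdown and by 4.38 in control cells, and Tgfb2 by 2.60 in knockdown and by 2.23 in control cells. Arhgef17 rose by 2.22 in knockdown cells and Asap1, an ARF GTPase-activating protein, by 1.34 in control cells. Nuak2 fell by 3.44 in knockdown and by 1.00 in control cells, Gadd45a by 1.39 in knockdown and by 0.64 in control cells, and Crim1 by 0.64 in control cells. The interaction was negative for Nuak2 (-2.44), Ccdc80 (-0.84) and Gadd45a (-0.75), and positive for Crim1 (1.39) and Arhgef17 (0.97). The largest edgeR adjusted p among these changes was 0.0185, for the Arhgef17 interaction, which lost its call without induced control replicate 1 (0.0517). Among all tested genes 11.8% had a negative and 10.6% a positive interaction. Without both libraries the interaction was positive for 5 of the 15 and negative for 3. All tested genes then had 2769 positive and 2986 negative interactions, against 1595 and 1780 with all libraries.

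As a description over the 12 libraries, which share the induction contrast, transcripts were ranked by the Pearson correlation of their log2 CPM with each gene. Ranked were tested genes with a symbol outside the 10, leaving out predicted genes (Gm or Rik names) and pseudogenes. Those most like Yap1 were Zc3hav1 (0.981) and Aebp2 (0.969), and those most like Wwtr1 were Wls (0.900), Fcho2 (0.8997) and Itgav (0.888). Tead1 ran most like Serinc5 (0.991), Clip1 (0.990) and Arnt (0.989), and Tead4 most like Chrnd, a subunit of the muscle acetylcholine receptor (0.973), Vash2 (0.959) and Grb10 (0.943). Ccn2 ran most like Apoe (0.992), Bgn (0.992) and Thbs2 (0.991), Ankrd1 most like Prune1 (0.954), Pla1a (0.948) and Epdr1 (0.946), and Ccn1 most like Msrb3 (0.992), Rhobtb1 (0.991) and the immediate-early gene Ier2 (0.991). Lats2 was nearest to Peg13 (0.991), Amotl2 to Six5 (0.996) and Axl to Angpt4 (0.999). Among the 10 genes themselves, Yap1 ran opposite to Axl (-0.861), Ccn2 (-0.811) and Ankrd1 (-0.809), while Tead1 ran with Ccn1 (0.928), Amotl2 (0.900) and Lats2 (0.883). The Tead1 to Ankrd1 value was 0.331.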

How the data were processed

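Polyadenylated RNA of C2C12 cells was sequenced in 12 libraries with a kit that does not keep strand. Per the submitters' processing notes, the authors used fastp 1.0.1, STAR 2.7.11b, Salmon (version not given in the sources used here) and build GRCm39. The deposited estimated counts per gene were rounded to whole numbers. The authors' TPM, deposited as a score for each library, served for levels between genes, and the deposited average transcript length for an alternative. The deposited FPKM values were not used. Of 78810 lines, 535 repeated a gene ID and were dropped. In the column names of 2 induced knockdown libraries a pair of letters is transposed, and they were taken as replicates 2 and 3, which they otherwise match.

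Genes were kept with filterByExpr (minimum count 10, minimum total 15). TMM factors and 1 robust quasi-likelihood fit of 4 group means to all 12 libraries (edgeR 4.0.16 in R 4.3.3, 8 residual degrees of freedom) gave the 5 comparisons, with Benjamini-Hochberg adjustment over all 15030 tested genes and calls at an adjusted p under 0.05. The code was tested on simulated data. TPM ratios were compared by exact two-sided permutation. Alternatives were DESeq2 1.42.0, other scalings, no filter, length offsets, the groups compared alone, a replicate block and leaving out libraries. The genes and lists were chosen with earlier results of these data known. From the 2 lists, up to 3 called genes of smallest p with groups that do not overlap were named in each direction. Among the transcripts ranked by correlation, 1 is not reported here. Same-numbered libraries of different groups correlated, after group means were removed, between -0.0963 and 0.306, and different-numbered ones between -0.279 and 0.249. These ranges overlap, so the numbers were not taken to pair the libraries, though this does not exclude pairing.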

Additional observations from a re-analysis of the deposited data

Results flagged for a closer look

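The effect of the Zfp143 siRNA differed between induced and uninduced cells for 5 of the 10 genes, against 22.5% of all tested genes. The test was the interaction in edgeR, with adjustment over all tested genes. The effect in induced cells minus that in uninduced cells was -3.35 for Ccn2, -2.09 for Ankrd1, -1.78 for Tead4, -0.80 for Axl and 0.84 for Tead1, on the log2 scale. The Tead1 interaction lost its call on leaving out single libraries named above (edgeR adjusted p = 0.0560 to 0.0625). Zfp143 itself differed in the same test, by 1.22 (adjusted p = 0.00358), with log2 fold changes of -0.18 in induced and -1.41 in uninduced cells. Without uninduced control replicate 3 and induced knockdown replicate 1, 2 genes had a positive interaction, Yap1 (0.52) joining Tead1, and 4 a negative one. Of all tested genes 2769 were then positive and 2986 negative, against 1595 and 1780 with all libraries.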

How the results depend on the processing

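The calls of Ccn2, Ankrd1 and Axl, of Tead1 for knockdown in uninduced cells and of Tead4 for knockdown in induced cells were the same under every alternative run. Of 390 values of the 10 genes under settings other than single left-out libraries, 363 kept their direction and call. The count of the 10 genes lower with knockdown in uninduced cells was 1 with scaling by library size only, without the filter and with the 2 groups alone, and 1 to 3 with a library left out. The count lower with induction in control cells was 0 with scaling by library size only. That scaling moved the median of all tested genes to 0.35 from 0.10 for induction in knockdown cells and to 0.21 from 0.03 in control cells. The count with a positive interaction was 0 to 2 with a library left out, and 2 without uninduced control replicate 3 and induced knockdown replicate 1, a setting chosen after seeing the data. Over all tested genes, 2575 were lower with knockdown in uninduced cells, and leaving out a library gave 1693 (uninduced knockdown replicate 1) to 2954. In induced cells 560 were higher and 867 lower, with 337 (induced control replicate 2) to 807 and 564 (the same library) to 1207. Without both libraries 949 were higher and 1576 lower with knockdown in induced cells, 3522 (2311 with all libraries) higher in uninduced cells, and 2769 (1595) had a positive and 2986 (1780) a negative interaction.

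Differences that did not pass the test and lie near 0 changed sign. With library size only these were, for knockdown in induced cells, Lats2 (0.064) and Tead1 (0.066), and for induction in knockdown cells, Ankrd1 (0.081), Tead4 (0.17), Wwtr1 (0.17) and Yap1 (0.16). Without the filter Wwtr1 was -0.0028 for knockdown in uninduced cells. With length offsets Wwtr1 was -0.024 there, Amotl2 -0.035, Tead1 0.040 and Tead3 -0.043 for knockdown in induced cells, and the Amotl2 interaction -0.016. With the 2 groups alone Lats2 was 0.0068 and Tead1 0.0090 for knockdown in induced cells. Without both libraries Lats2 was -0.048 and Wwtr1 -0.031 for knockdown in uninduced cells, and Amotl2 -0.072, Tead1 0.064, Tead2 -0.10 and Tead3 -0.24 in induced cells. Wwtr1 was then 0.060 for induction in knockdown cells, and the interactions of Lats2 and Wwtr1 were 0.013 and 0.0060. With a library left out, knockdown in uninduced cells gave -0.034 to 0.10 for Wwtr1, -0.20 to 0.035 for Amotl2 and -0.039 to 0.17 for Lats2. Knockdown in induced cells gave -0.14 to 0.065 for Tead1, -0.071 to 0.15 for Amotl2, -0.10 to 0.24 for Tead2, -0.24 to 0.21 for Tead3, -0.051 to 0.0020 for Lats2 and -0.00059 to 0.11 for Yap1. Induction in knockdown cells gave -0.18 to 0.030 for Tead4 and -0.17 to 0.060 for Wwtr1, and the interaction -0.20 to 0.014 for Lats2 and -0.0023 to 0.27 for Amotl2.

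The Wwtr1 to Yap1 ratio for induction in knockdown cells, 0.02 on the log2 scale, was -0.0031 from counts and -0.033 to 0.074 with a library left out. The Tead4 to Tead1 ratio was 1.32 for knockdown in uninduced cells and 0.60 for induction in control cells with a pseudocount of 1 TPM, and -1.03 for knockdown in induced cells and 0.63 for induction in control cells from counts. The cause of these shifts was not tested. A replicate block moved Tead2 past the threshold for induction in knockdown cells (adjusted p = 0.0189) and changed no call of the 10 genes: 4 were higher and 2 lower with knockdown in uninduced cells, as without it, with 2414 and 2701 of all tested genes called. In the pairing check 5 of 12 libraries correlated best with their own number. For the ratios, the smallest exact permutation p within same-numbered pairs is 0.25.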
